A study of Mus musculus with 28 samples.

Results

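Macrophages primed with IL-4 before LPS were compared with macrophages primed with IFN-γ before LPS. The samples were chosen by their titles and came to 7 of the 28 arrays of the series, 4 of IL-4 plus LPS (experiments A, B, C and G) and 3 of IFN-γ plus LPS (experiments E, F and G). All were macrophages grown from bone marrow of C57BL6/J mice aged 8 to 12 weeks (2 males and 1 female), with no genetic change named, and cells of several animals were pooled. CSF1 at 200 ng/ml, the growth factor that turns marrow cells into macrophages, was used in every group. Priming started at day 7 with IL-4 at 10 ng/ml or IFN-γ at 100 U/ml and lasted 18 h, and LPS at 10 ng/ml was present for the last 4 h of it. The same primings without LPS (4 IL-4 arrays and 3 IFN-γ arrays with the same letters) and 7 arrays of LPS alone (A to G) served for comparison.

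IL-4 signals through its receptor to STAT6, which switches on the genes of alternative activation, among them arginase, lectin receptors and secreted proteins of tissue repair and of the response to parasites. IFN-γ acts on genes with GAS elements and primes macrophages for killing microbes and presenting antigen. LPS, a bacterial wall component, acts through TLR4 on NF-κB and on IRF3, and the IFN-β made in response adds signalling through ISRE elements.

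RNA was hybridised to 1-colour oligonucleotide arrays. A level below is the log2 signal of a gene's brightest probe relative to the array's 75th percentile, and a difference is the IL-4 level minus the IFN-γ level, so that positive values are higher with IL-4. Values are given for IL-4 plus LPS in the order A, B, C, G and for IFN-γ plus LPS in the order E, F, G, errors are standard errors (SE) of the fit, and a gene is called where limma's adjusted p (Benjamini-Hochberg, all genes tested) is under 0.05. On the 7 arrays the 75th percentile lay between 582 and 1127 intensity units and 60.3 to 72.1% of probes were well above background. Correlations over all genes were 0.957 to 0.977 among the 4 IL-4 arrays and 0.975 to 0.990 among the 3 IFN-γ arrays. The 10 slides of the series never carried both groups, and of 5 scan days 1 held an array of each, both of experiment G. Of 5729 called genes measured on both arrays of that day, 5647 (98.6%) differed there in the called direction, but the same 2 arrays entered the fit that made the calls, so this is no independent check. Labels name the letters as independent experiments of pooled cells, so p-values reflect the spread between cultures, not between single mice. The fit took that spread from all groups of the series, not only from the 7 arrays compared. A fit of only the groups compared called 2472 genes after LPS, against 5736.

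All 10 macrophage markers were well above background on all 7 arrays. Their summed linear signal, in units of the array's 75th percentile, was 938 to 1072 with IL-4 and 1464 to 1612 with IFN-γ, and Cd14, Fcgr1 and Mertk were called lower with IL-4. The call of Fcgr1 ended after a normexp background correction of the raw spot signals (limma adjusted p = 0.105). In a fit of only the groups compared the calls of Fcgr1 and Mertk ended (0.0752 and 0.0634). The 8 dendritic cell markers summed to 34.7 to 68.0 with IL-4 and 11.2 to 18.4 with IFN-γ, although the 4 called members (Ccr7, Clec9a, Dpp4 and Zbtb46) were lower with IL-4 and other probes of Zbtb46 were called the opposite way. With IL-4 most of the dendritic sum was Itgax, which read 5.01 to 6.01 (log2) against 1.81 to 2.66 with IFN-γ. Itgax was not called (3.30 ± 1.51, limma adjusted p = 0.117), although its arrays did not overlap. Its SD was 0.43 among the IL-4 arrays and 0.45 among the IFN-γ arrays. The SE draws on the spread in all groups of the series, so the missing call does not show a wide spread on these 7 arrays. Most of the endothelial sum below was Kdr (1.79 to 2.62 against 2.92 to 4.07). Stromal markers summed to 1.84 to 3.26 against 0.628 to 1.08 (Cxcl12 and Pdgfrb called higher), endothelial markers to 4.11 to 6.71 against 7.95 to 17.0 with none of 4 called, and NK cell markers to 0.0965 to 0.242 against 0.525 to 0.726 (Klrk1 called lower). T cell markers summed to 0.935 to 3.74 against 0.566 to 0.778 (Lck called higher), and eosinophil markers to 0.420 to 0.560 against 0.299 to 0.370 with none of 4 called. Neutrophil, B cell, mast cell and erythroid sums overlapped between the groups, with Elane, Mmp8 and Mpo of 8 neutrophil markers, Cd79b and Alas2 called higher with IL-4. Elane was not well above background on any of the 7 arrays. Alas2 was well above background on only 1 of the 3 IFN-γ arrays. The part of these cell types in the results below was not tested. In RNA of whole cultures, fewer cells of a type and less RNA per cell cannot be told apart.

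After LPS, 5736 of 22445 genes (25.6%) were called between the primings, 3120 (13.9%) higher and 2616 (11.7%) lower with IL-4. At least 2-fold changes made up 2063 (9.19%) and 1701 (7.58%) of the genes tested. Without LPS the same primings gave 6260 called genes (27.9%), 3334 (14.9%) higher and 2926 (13%) lower with IL-4. Of the genes called after LPS, 3473 were also called in the same direction without LPS, which is 60.5% of the calls after LPS and 55.5% of those without, and 83 were called in opposite directions. LPS changed the signed IL-4 against IFN-γ difference for 1212 genes (5.4%), upward for 798 (3.56%) and downward for 414 (1.84%). Upward means a more positive difference after LPS, so a negative difference that shrank also counts as upward. The median difference over all genes was 0.29 after LPS and 0.30 without. These splits move with scaling: with arrays set to equal medians the all-gene median was -0.08 and 1105 genes were called higher and 3271 lower, and with quantile normalization 2821 and 3020.

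Promoters of 6 genes are shown because their motifs belong to the pathways compared and the genes represent the patterns below: Retnla an IL-4 gene whose difference showed no called change with LPS, Ccl17 and Il12a genes whose difference grew with LPS, and Gbp2b, Gbp7 and Cxcl10 interferon genes whose difference shrank. The sequences are the 250 bases before the start, 5′ to 3′ on the gene's strand, from RefSeq on GRCm38.p6. Capitals mark the STAT6 site (TTC and GAA with any 4 bases between them), the GAS element (TTC and GAA with any 3 bases between them) and the ISRE core (GAAA, any 2 bases, GAAA), each sought on both strands; matches of different motifs may share bases.
Retnla: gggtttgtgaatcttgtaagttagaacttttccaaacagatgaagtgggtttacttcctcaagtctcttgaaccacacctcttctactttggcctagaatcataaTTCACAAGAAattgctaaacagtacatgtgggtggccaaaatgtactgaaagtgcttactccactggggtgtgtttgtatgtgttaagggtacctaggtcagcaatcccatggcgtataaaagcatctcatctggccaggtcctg
Ccl17: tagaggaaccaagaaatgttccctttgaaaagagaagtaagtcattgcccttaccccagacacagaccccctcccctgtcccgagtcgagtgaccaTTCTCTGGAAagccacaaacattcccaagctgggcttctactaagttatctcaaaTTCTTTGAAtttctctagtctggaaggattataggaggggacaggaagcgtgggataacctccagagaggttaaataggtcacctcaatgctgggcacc
Il12a: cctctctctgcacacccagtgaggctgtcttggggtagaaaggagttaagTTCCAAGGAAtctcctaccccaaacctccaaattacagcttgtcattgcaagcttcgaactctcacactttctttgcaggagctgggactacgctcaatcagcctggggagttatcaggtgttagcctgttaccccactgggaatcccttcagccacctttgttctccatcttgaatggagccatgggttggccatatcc
Gbp2b: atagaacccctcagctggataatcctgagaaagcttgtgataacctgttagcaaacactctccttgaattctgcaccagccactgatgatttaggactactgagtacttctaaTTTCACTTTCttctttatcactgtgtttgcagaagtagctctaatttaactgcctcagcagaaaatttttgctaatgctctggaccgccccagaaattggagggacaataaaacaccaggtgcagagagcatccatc
Gbp7: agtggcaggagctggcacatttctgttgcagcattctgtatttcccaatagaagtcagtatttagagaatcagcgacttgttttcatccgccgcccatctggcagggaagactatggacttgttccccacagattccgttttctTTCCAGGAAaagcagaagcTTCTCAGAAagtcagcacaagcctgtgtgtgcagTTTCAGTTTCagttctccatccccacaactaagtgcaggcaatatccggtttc
Cxcl10: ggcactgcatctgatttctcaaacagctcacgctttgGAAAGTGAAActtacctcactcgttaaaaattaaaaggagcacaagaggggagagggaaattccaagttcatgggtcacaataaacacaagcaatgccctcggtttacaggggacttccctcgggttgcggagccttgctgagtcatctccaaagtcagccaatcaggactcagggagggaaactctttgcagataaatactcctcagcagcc
Retnla lies at chr16:48842359-48842608 and Ccl17 at chr8:94810203-94810452, both on the plus strand. Il12a (the first of its 2 windows) lies at chr3:68690394-68690643, Gbp2b at chr3:142594597-142594846 and Gbp7 at chr3:142530086-142530335, also on the plus strand, and Cxcl10 at chr5:92348890-92349139 on the minus strand. Over windows of 300 bases (250 before to 50 after the start), the STAT6 site occurred in 6.95% of all 32851 RefSeq promoters, the GAS element in 8.3% and the ISRE core in 3.44%. The STAT6 site was present in 7.67% of the 1761 windows of genes at least 2-fold higher with IL-4 and in 4.58% of the 1508 windows of genes at least 2-fold lower. Windows of all tested genes held it in 5.8%. The GAS element occurred in 7.5% and 7.36% of the windows higher and lower (tested genes 7.35%). For the ISRE core the shares were 2.84% and 3.05% (tested genes 3.15%). The ISRE core occurred in 11 of 13 GBP and IRG windows (84.6%) and 16 of 39 antiviral windows (41%). The symbol matched a promoter for 13549 of 22446 tested genes. A match describes letters only and says nothing about binding.

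Most genes of alternative activation were higher with IL-4 both without and after LPS. Of 52 measured members of 56 listed, 35 were called higher and 2 lower with IL-4 (13.9% and 11.7% over all genes), with a median of 2.56 against 0.29 over all genes, and 35 were higher and 7 lower without LPS. The change with LPS was called upward for 7 members and downward for 7, against 3.56% and 1.84% of all genes, and 5 of the 7 downward were among the 11 transcription factors or signals of the list. In 41 members the arrays of the groups did not overlap, against 6069 of 22336 genes (27.2%). Retnla, a secreted effector of the response to worms, read 7.97, 7.67, 8.31 and 7.28 with IL-4 and -8.43, -8.68 and -7.92 with IFN-γ. The gene was not well above background on any IFN-γ array, so the fold is a bound. Retnla was at least 18543-fold higher with IL-4 (difference 16.15 ± 0.57 SE, limma adjusted p = 7.9e-16), where a bound sets the bright group's mean against the higher of the lowest signal well above background and the dim probe's own on each array. Its difference without LPS was 16.47, and the change with LPS was -0.32 (95% interval -1.98 to 1.34). As the fold after LPS is only a bound, this interval cannot show that the difference stayed the same.

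Ccl24, a chemokine for eosinophils, read 5.70, 5.99, 6.67 and 4.16 with IL-4 and -6.63, -7.92 and -8.04 with IFN-γ. It was at least 4090-fold higher with IL-4 (difference 13.16 ± 0.69, limma adjusted p = 1.6e-12). The IFN-γ arrays were all below background, and array G was the lowest of the IL-4 arrays. Its difference was larger after LPS by 3.40 (adjusted p = 0.040), a call that ended when any of 10 of the 14 primed arrays was left out (up to 0.106, without IFN-γ array E of the priming without LPS). That call also ended with normexp (2.15, 0.417) and with the experiment letter as a block over all 28 arrays (0.0611). No filter on dim probes (0.0512) and a fit of only the groups compared (0.0663) ended it too. Mgl2, a galactose-binding lectin receptor, read 5.19, 4.22, 5.06 and 5.53 against -4.28, -3.95 and -4.64, a difference of 9.29 ± 0.37 (adjusted p = 5.6e-15). Arg1, the arginase that turns arginine to ornithine, read 4.37, 2.29, 2.95 and 5.21 against -5.96, -5.62 and -4.46, a difference of 9.05 ± 0.68 (adjusted p = 6.9e-10). For both genes every IL-4 array lay far above every IFN-γ array. Arg1 spanned nearly 3 log2 units among the IL-4 arrays, with B lowest and G highest.

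Mrc1, the mannose receptor, read 6.12, 5.43, 5.76 and 5.96 with IL-4 and -0.22, 0.22 and -0.23 with IFN-γ, a difference of 5.89 ± 0.30 (limma adjusted p = 1.3e-12). Most of that gap lay on the IFN-γ side: against LPS alone Mrc1 differed by 1.74 with IL-4 and by -4.15 with IFN-γ. In the comparison with LPS alone, 980 genes (4.37%) were higher and 1031 (4.59%) lower with IL-4, 2011 (8.96%) in all, and 2392 (10.7%) were higher and 2717 (12.1%) lower with IFN-γ, 5109 (22.8%) in all. These comparisons use the same LPS arrays and are set side by side only. Chil3, a chitinase-like secreted protein, differed by 4.00 ± 0.47, from IL-4 values of 5.16 to 6.22 and IFN-γ values of 0.51 to 2.21. Pdcd1lg2, the inhibitory PD-1 ligand PD-L2, differed by 4.73 ± 0.66 and was 6.00 higher than with LPS alone in the IL-4 group. Rnase2a, an eosinophil-type ribonuclease, differed by 8.23 ± 0.60, and its IFN-γ arrays spread from -4.99 to -1.64.

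Several other IL-4 genes were below background on every IFN-γ array. Fn1, fibronectin of the extracellular matrix, was at least 88.4-fold higher with IL-4, Cyp1b1, a cytochrome P450, at least 68.5-fold, and Cdh1, the adhesion protein E-cadherin, at least 53.1-fold. These bounds hold for the brightest probe of each gene. Other probes differed by 3.52 and 2.50 for Fn1 and by 2.65 for Cyp1b1, all called. The eosinophil-associated ribonucleases Ear10 and Ear3 were at least 50.5-fold and 32.9-fold higher, and Rbp4, which carries retinol, at least 37.3-fold. The Ear genes are near-identical copies, so a probe may read more than 1 of them. After a normexp background correction of the raw spot signals the calls of Cdh1, Ear10, Ear3, Rbp4 and Cyp1b1 ended (limma adjusted p 0.0527 to 0.234). Their differences were then 2.36, 2.26, 1.83, 1.93 and 2.32 log2 units, smaller than the bounds given above. The bounds of these genes therefore hold only for the deposited processed intensity. With normexp the alternative activation list held 29 genes higher and 2 lower.

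Not every gene of the list was higher with IL-4. Tgm2, the cross-linking enzyme transglutaminase, read 5.17, 4.85, 5.55 and 4.66 with IL-4 and 7.67, 8.10 and 7.26 with IFN-γ, a difference of -2.62 ± 0.25 (limma adjusted p = 4.3e-08). Every IFN-γ array was higher. That difference was -5.46 without LPS and moved by 2.84 with LPS (adjusted p = 7.0e-06). Klf4, a transcription factor of monocytes and alternative activation, read 3.43, 1.99, 2.56 and 2.98 against 5.82, 4.56 and 4.47, a difference of -2.21 ± 0.36 (adjusted p = 5.7e-05). Without LPS it was not called (0.86, adjusted p = 0.081), and its mean without LPS was 5.87 with IL-4 and 5.02 with IFN-γ. Il4ra, the receptor chain for IL-4, differed by -0.21 (95% interval -1.02 to 0.59) and Cd36, a scavenger receptor for lipids, by 0.18 (-0.32 to 0.68). Ch25h, which makes 25-hydroxycholesterol, differed by 0.04 (-1.38 to 1.47) after LPS and by -4.72 without.

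**Figure D1:**
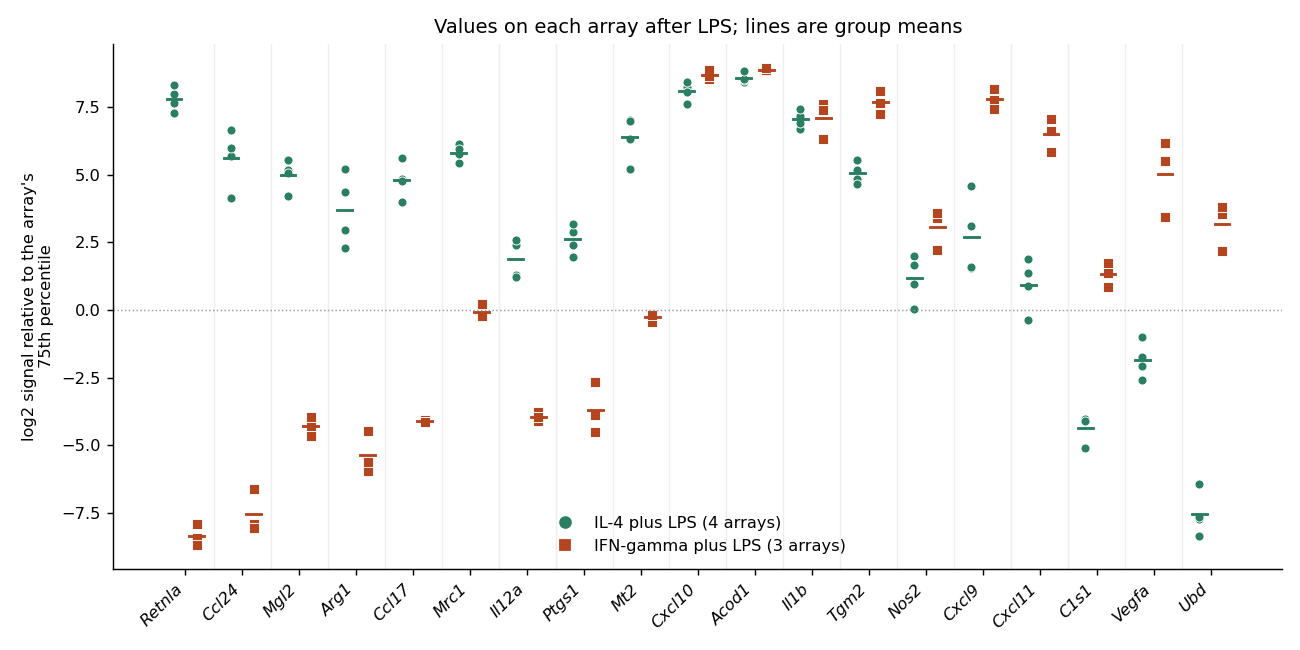
Log2 level relative to the array's 75th percentile (vertical axis) of 19 genes (horizontal axis) on each of the 4 IL-4 plus LPS arrays (green circles) and 3 IFN-γ plus LPS arrays (red squares), with lines at the group means. Retnla and Ccl24 on the left differ by 16.15 and 13.16 log2 units, Cxcl10, Acod1 and Il1b lie close together in both groups, and Ubd on the right differs by -10.72.

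The largest differences toward IFN-γ came from genes of several functions. Ubd, the ubiquitin-like protein FAT10, read 3.55, 3.82 and 2.19 with IFN-γ and -6.43, -7.73, -7.65 and -8.34 with IL-4. It was not well above background on any IL-4 array and was at least 526-fold lower there (difference -10.72 ± 0.82, limma adjusted p = 9.6e-10). The median of LPS alone was -7.51, within the IL-4 range, and the mean of the IFN-γ group stood 10.47 above the mean of LPS alone. C1s1, a protease of the classical complement pathway, read 1.75, 1.38 and 0.87 with IFN-γ and -4.11, -4.04, -4.10 and -5.11 with IL-4, a difference of -5.67 ± 0.30 (adjusted p = 1.4e-12). C4b, the next component of that pathway, differed by -4.30 ± 0.34 and Cfb, factor B of the alternative pathway, by -2.28 ± 0.36, and in both every IFN-γ array was higher. Of 23 Fc receptor and complement genes, 4 were called higher and 9 lower (13.9% and 11.7% over all genes). In a fit of only the groups compared 5 were lower, and with equal medians 2 were higher.

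Cd300lf, an inhibitory receptor of myeloid cells, differed by -5.02 ± 0.27 (limma adjusted p = 2.2e-12) and by -3.55 without LPS, a change of -1.46 with LPS (adjusted p = 0.020). That change was not called with normexp (0.417), equal medians (0.226), the letter block over the 14 primed arrays (0.146), the mean of its probes (0.154) or a fit of only the groups compared (0.116). It was also not called without IL-4 array B (0.0503) or IFN-γ array E (0.0607) of the primings without LPS, IL-4 plus LPS array C (0.0557) or IFN-γ plus LPS array F (0.0735). Another probe of Cd300lf differed by -0.72 after LPS (adjusted p = 0.059). Clec9a, a receptor for dead cells and a dendritic cell marker, was below background on all IL-4 arrays and at least 20.0-fold lower there, with IFN-γ values of -1.82 to -1.29. Dnase1l3, a secreted nuclease, differed by -4.47 ± 0.52, and Ido1, the enzyme that breaks down tryptophan, by -4.00 ± 0.51. Ido1 was 4.34 above LPS alone with IFN-γ and 0.34 (adjusted p = 0.78) with IL-4. Slc6a19 and Slc43a2, amino acid transporters, differed by -4.60 ± 0.60 and -4.62 ± 0.86, and the barrier protein Cldn23 by -4.49 ± 0.30. Calls of Clec9a and Cldn23 ended with normexp (adjusted p = 0.117 and 0.0686). Across the 15 largest called differences in each direction, the arrays of the groups did not overlap (27.2% of all genes did not). The pair scanned on 1 day gave 5.40 to 15.2 and -10.5 to -4.08. These genes were chosen by size on the same arrays, so neither result is an independent check.

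The interferon chemokines Cxcl9, Cxcl10 and Cxcl11 attract T cells through CXCR3, and the difference in each shrank with LPS. Cxcl9 read 3.10, 1.57, 4.57 and 1.58 with IL-4 and 7.77, 8.17 and 7.42 with IFN-γ after LPS, a difference of -5.08 ± 0.59 (limma adjusted p = 6.6e-07) against -13.19 without LPS. Cxcl11 read 1.90, -0.38, 1.37 and 0.88 against 7.06, 6.62 and 5.83, a difference of -5.56 ± 0.42 (adjusted p = 6.9e-10) against -12.69 without LPS. In both, every IFN-γ array was higher after LPS. Cxcl10 read 8.26, 7.63, 8.05 and 8.42 against 8.55, 8.66 and 8.87, a difference of -0.60 (95% interval -1.22 to 0.01, adjusted p = 0.14) that was not called. Its difference without LPS was -8.46 and the change with LPS 7.86 ± 0.42 (adjusted p = 6.6e-12), and for Cxcl9 and Cxcl11 it was 8.11 ± 0.84 and 7.13 ± 0.59. The change of Cxcl11 was 2.64 and not called (adjusted p = 0.107) with normexp. The brightest gene on each array read 8.80 to 9.83, and none of the 165 named genes had a saturated spot.

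All 38 measured antiviral genes that type I interferon induces were lower with IL-4 without LPS (median -2.68, against 0.30 over all genes, of which 13% were called lower). After LPS 5 were called lower and 1 higher, against 11.7% and 13.9% of all genes, the median was -0.26 against 0.29, and the difference was nearer to 0 in 38 of 38. The change with LPS was called upward in 37 of 38, against 3.56% of all genes. Oasl1, an antiviral oligoadenylate synthetase-like protein, read 7.00, 6.04, 7.04 and 7.27 with IL-4 and 8.08, 8.06 and 8.05 with IFN-γ, a difference of -1.23 ± 0.30 (limma adjusted p = 0.0030) against -5.67 without LPS. The IFN-γ arrays were nearly equal and all above the IL-4 arrays. The other 4 genes called lower were Ifi44, Isg20, Irf7 and Adar, and Eif2ak2, a kinase that stops translation, was the 1 called higher. Isg20, an RNA exonuclease, differed by -0.98 ± 0.24 after LPS and -5.47 without. Calls of Oasl1 and Isg20 ended with normexp (adjusted p = 0.214 and 0.204) and in a fit of only the groups compared (0.0567 and 0.0688), and Oasl1's also with the experiment letter as a block (0.0513). Those of Ifi44, Irf7, Adar and Eif2ak2 ended when single arrays were left out: for Ifi44 IL-4 array G (0.0629) or IFN-γ arrays F (0.0742) or G (0.0502), for Irf7 IL-4 arrays B (0.0642) or G (0.0522) or IFN-γ arrays E (0.136) or G (0.0792), for Adar IL-4 arrays B (0.108) or G (0.0579) or IFN-γ arrays E (0.154) or F (0.0889), and for Eif2ak2 IFN-γ array E (0.121).

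Mx2, an interferon-induced GTPase that restricts viruses, read 6.70, 5.62, 6.66 and 6.55 against 6.17, 6.32 and 6.63, a difference of 0.01 (95% interval -0.57 to 0.59) after LPS and -3.79 without. Its IFN-γ arrays lay inside the IL-4 range. Dhx58, an RNA sensor, and Cmpk2, a nucleotide kinase, differed by 0.03 (-0.39 to 0.46) and -0.08 (-0.73 to 0.57) after LPS, and by -2.20 and -5.40 without. Irf1, a transcription factor induced by interferons, differed by -0.93 ± 0.25 (adjusted p = 0.0068) after LPS against -2.93 without. The call of Irf1 after LPS ended with normexp (0.371) and in a fit of only the groups compared (0.0746). Ifnb1, the type I interferon itself, read 0.89, -0.76, 1.03 and 1.95 with IL-4 and 3.96, 2.49 and 1.99 with IFN-γ, a difference of -2.03 ± 0.67 (adjusted p = 0.027). The arrays of experiment G nearly met, at 1.95 and 1.99. The change with LPS (4.92) was 1.30 and not called (0.417) with normexp. The call after LPS ended without IL-4 array B (0.109) or IFN-γ arrays E (0.179) or F (0.0507), with normexp (0.191), with the letter block (0.239), with the scan day as a block (0.0508) and in a fit of only the groups compared (0.108).

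The guanylate-binding proteins (GBP) and immunity-related GTPases (IRG), which attack vacuoles that hold microbes, kept part of the difference. All 15 measured of 21 listed were lower with IL-4 without LPS (median -5.22), and after LPS 9 were called lower and none higher (median -0.92), with the change called upward in all 15. Over all genes 13% were lower without LPS, 11.7% were lower and 13.9% higher after it, and 3.56% changed upward. Gbp2b read 0.13, -0.24, 1.10 and -1.14 with IL-4 and 3.81, 3.50 and 2.76 with IFN-γ, a difference of -3.40 ± 0.71 (limma adjusted p = 0.00082). Every IFN-γ array was higher, while the IL-4 group itself stood 3.08 above LPS alone (adjusted p = 0.00084) and the IFN-γ group 6.48 above it. Gbp4 differed by -4.00 ± 0.53, Gbp8 by -3.38 ± 0.45, Gbp6 by -2.07 ± 0.35 and Iigp1 by -1.58 ± 0.39. Gbp2 (-0.71, 95% interval -1.45 to 0.03), Gbp3 (-0.38, -1.09 to 0.32), Gbp7 (-0.52, -1.22 to 0.19) and Ifi47 (0.07, -0.58 to 0.72) were not called after LPS, from -5.85, -4.68, -4.58 and -3.29 without. Gbp7, whose window holds 2 GAS elements and an ISRE core, read 3.44, 3.38, 3.96 and 2.84 against 4.40, 3.64 and 3.73, with array C of IL-4 above F and G of IFN-γ. With normexp 5 members were called lower, the call of Iigp1 ended (0.0929) and so did that of the change of Gbp2b (0.0554). With the scan day as a block Gbp2 and Gbp3 were called (0.0366 and 0.0222), and Gbp2 also with equal medians (0.0304) and with array weights (0.0280). Family members share sequence, so a probe may read more than 1.

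**Figure D2:**
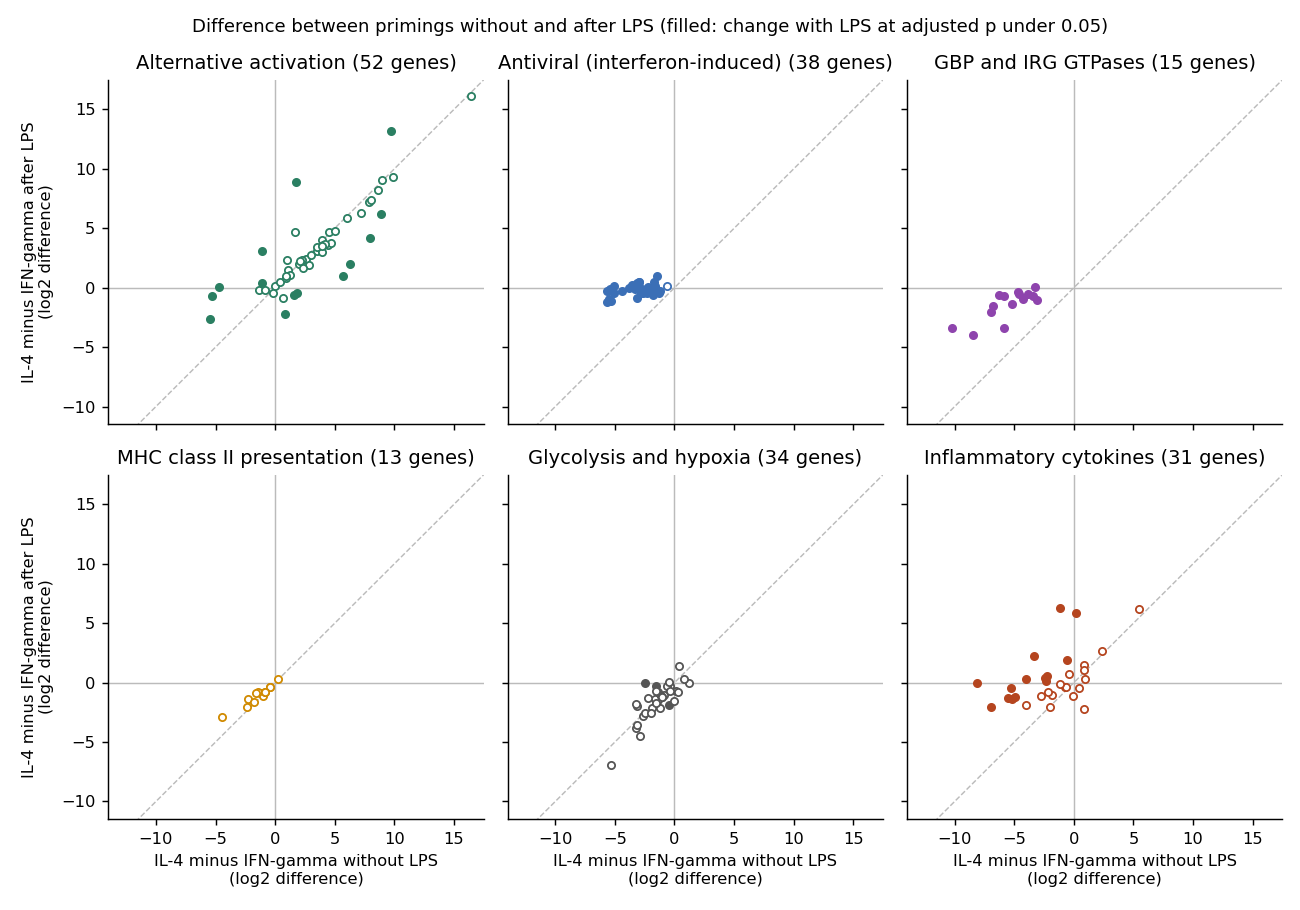
Difference of IL-4 minus IFN-γ without LPS (horizontal axis, log2) against the difference after LPS (vertical axis, log2) for the measured genes of 6 lists, 1 list a panel, with filled points where the change with LPS had an adjusted p under 0.05 and a dashed line of equal differences. Antiviral genes (38) and GBP and IRG genes (15) lie left of 0 and far above the line, MHC class II genes (13) and glycolysis and hypoxia genes (34) lie along it, and alternative activation genes (52) scatter along it on the positive side.

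Most genes of MHC class II antigen presentation to T helper cells were lower with IL-4 both without and after LPS. Of 13 measured, 7 were called lower with IL-4 after LPS and 9 without, none was higher, and the change with LPS was called for none at a limma adjusted p under 0.05 (medians -0.87 and -1.24). Over all genes 11.7% were lower after LPS and 13% without, and the change was called for 5.4%. H2-Eb1, a chain of the peptide-presenting molecule, read 4.30, 5.11, 5.01 and 4.60 with IL-4 and 6.20, 6.19 and 6.00 with IFN-γ, a difference of -1.37 ± 0.31 (adjusted p = 0.0016). H2-Oa and H2-Ob, which form the inhibitor of peptide loading, differed by -2.92 ± 0.40 and -2.06 ± 0.33, and Rfx5, a promoter-binding activator of the class, by -1.63 ± 0.32. In these 4 genes every IFN-γ array was above every IL-4 array. Another probe of Rfx5 differed by -0.63 and was not called (limma adjusted p = 0.227). Both primings stood above LPS alone: 9 members were called higher with IL-4 (4.37% of all genes were) and 11 with IFN-γ (10.7% were), and none lower. H2-Aa was 1.70 above LPS alone with IL-4 and 2.46 with IFN-γ, and differed between them by -0.76 (-1.64 to 0.11). Ciita, the master regulator of the class, was 2.70 and 3.84 above LPS alone and differed by -1.14 (-2.13 to -0.14, adjusted p = 0.089), a value called with the slide (0.00019) or the scan day (9.4e-05) as a block, with equal medians (0.0062), with array weights (0.0201) and in a fit of only the groups compared (0.0268). H2-Aa too was called with the slide (3.4e-05), the scan day (0.0181) and equal medians (0.0355).

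Cd74, the invariant chain, differed by -0.87 ± 0.30 (adjusted p = 0.031), a call that ended without IL-4 arrays A (0.104) or G (0.0657), without IFN-γ arrays E (0.107) or F (0.0936), with normexp (0.420), with quantile normalization (0.195) and in a fit of only the groups compared (0.107). With normexp 2 members of the class were called lower (H2-Eb1 0.0633, H2-Ob 0.177), and leaving out 1 array gave 4 to 7. Of 17 class I genes, which present peptides to cytotoxic T cells, 5 were called lower after LPS and 14 without (11.7% and 13% over all genes). After LPS, leaving out 1 array gave 2 to 5, and normexp gave 0. Tapbp, which loads peptides on class I, read 6.92, 7.04, 7.32 and 7.03 with IL-4 and 7.59, 8.07 and 8.10 with IFN-γ, a difference of -0.84 ± 0.19 (limma adjusted p = 0.0013). Every IFN-γ array was higher. That call ended with normexp (0.320), in a fit of only the groups compared (0.0720) and with the mean of the gene's probes (0.194). Tap1, which carries peptides to class I, differed by 0.17 (-0.32 to 0.67) after LPS and by -2.20 without.

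Among 31 inflammatory cytokine genes, 18 were called lower and 2 higher with IL-4 without LPS (median -1.83), and after LPS 9 lower and 6 higher (median -0.08, against 0.29 over all genes). The change was called upward for 14 and downward for none. Over all genes 13% were lower and 14.9% higher without LPS, 11.7% and 13.9% after it, and 3.56% changed upward. Il1b, the pyrogenic cytokine IL-1β, read 7.18, 6.70, 7.42 and 6.93 with IL-4 and 7.63, 7.38 and 6.33 with IFN-γ. The groups overlapped, with a difference of -0.06 (95% interval -1.38 to 1.26, limma adjusted p = 0.95). Without LPS the difference was -8.09, and the change was 8.03 ± 0.91 (adjusted p = 1.3e-06). With normexp 1 member was called lower and 3 higher. Lower calls numbered 3 without IFN-γ array E or with the letter block, 4 without IFN-γ array F and 2 in a fit of only the groups compared.

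The subunits of the IL-12 family went different ways. Il12a, the p35 subunit of IL-12, read 1.31, 1.24, 2.42 and 2.61 with IL-4 and -4.09, -3.77 and -3.96 with IFN-γ, a difference of 5.84 ± 0.61 (limma adjusted p = 1.5e-07). All IL-4 arrays lay above all IFN-γ arrays. Without LPS the difference was 0.15 (adjusted p = 0.87) (means -6.10 and -6.26), so the difference appeared with LPS (change 5.68 ± 0.87, adjusted p = 8.4e-05, or 2.69 and 0.162 with normexp). Against LPS alone, whose median was -2.07, IL-4 differed by 3.80 (adjusted p = 9.9e-06) and IFN-γ by -2.04 (0.0083, or -0.87 and 0.527 with normexp). Il12b, the p40 subunit shared by IL-12 and IL-23, read 1.63, 0.38, 2.93 and 1.48 against 0.46, 1.51 and 1.81, and its groups overlapped (0.34, 95% interval -0.89 to 1.57). Its change with LPS (4.38) was 0.57 and not called (0.667) with normexp. Both stood below LPS alone, by -1.76 with IL-4 and -2.10 with IFN-γ. The value with IL-4 was not called without array A (0.0540), B (0.126) or G (0.0615), and the value with IFN-γ not without array E (0.0712). Normexp (0.196), the letter block (0.0706), the slide block (0.0642) and a fit of only the groups compared (0.0998) also ended the call with IL-4.

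Il23a, the p19 subunit of IL-23, read -4.09, -5.66, -4.23 and -3.43 with IL-4 and -1.15, -1.60 and -3.60 with IFN-γ, a difference of -2.24 ± 0.74 (limma adjusted p = 0.028). Array G of IL-4 lay above array G of IFN-γ, by 0.17. The call ended without IL-4 array B (0.0973), IFN-γ array E (0.154) or F (0.116), with normexp (0.310), with the letter block (0.289) and in a fit of only the groups compared (0.0870). Il27, the p28 subunit of IL-27, differed by -0.41 (-1.31 to 0.50), with array B of IL-4 at 2.09 and the other 6 arrays at 4.21 to 4.76. Il12a thus stood higher with IL-4, while Il12b and Il27 were not called.

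**Figure D3:**
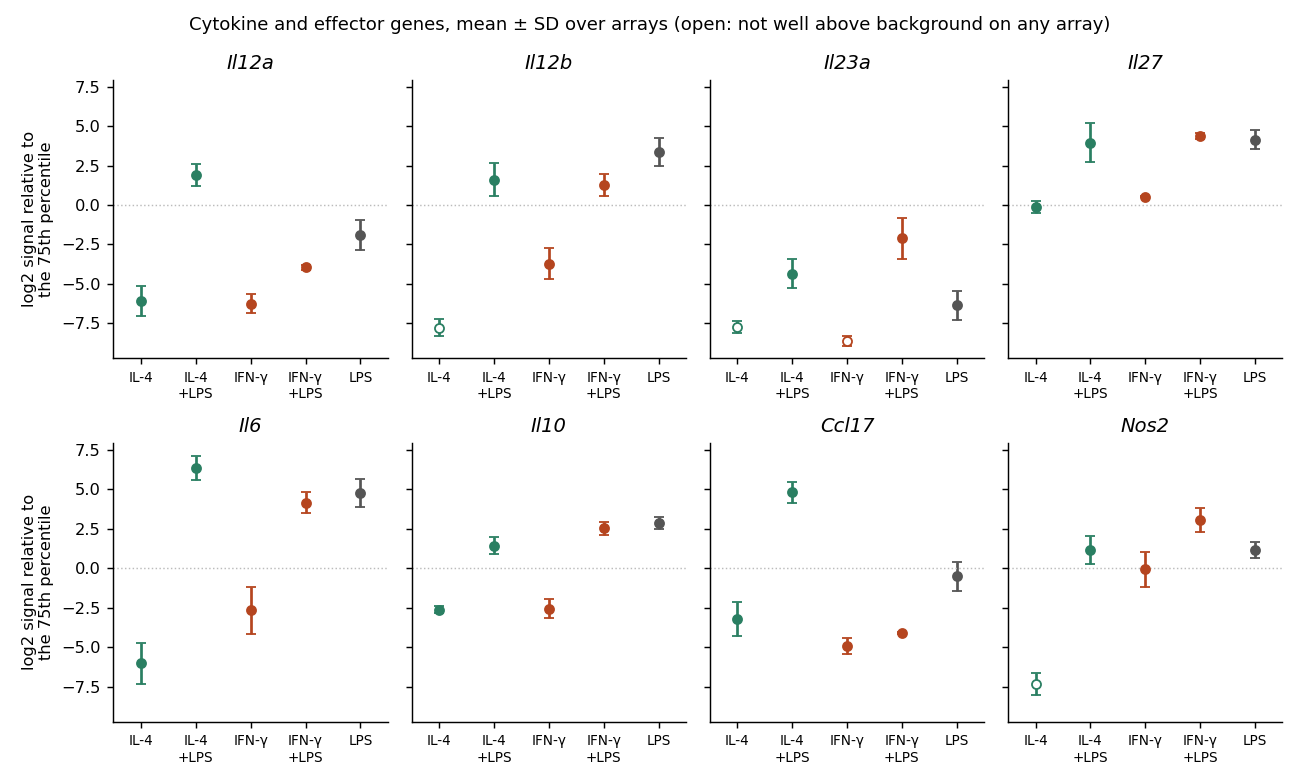
Mean log2 level with SD over arrays (vertical axis) of Il12a, Il12b, Il23a, Il27, Il6, Il10, Ccl17 and Nos2 in the IL-4, IL-4 plus LPS, IFN-γ, IFN-γ plus LPS and LPS groups (4, 4, 3, 3 and 7 arrays), with open symbols where no array of a group was well above background. Il12a and Ccl17 are highest in IL-4 plus LPS, and Nos2 and Il10 are lower there than in IFN-γ plus LPS.

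Il6, a cytokine of the acute phase, read 6.49, 5.37, 7.20 and 6.48 with IL-4 and 4.44, 4.63 and 3.40 with IFN-γ, a difference of 2.23 ± 0.68 (limma adjusted p = 0.017). Every IL-4 array was higher after LPS, while without LPS the difference was -3.35 and the change 5.57 ± 0.96. The call after LPS ended without IL-4 array C (0.0533), IFN-γ array G (0.0835), with the slide block (0.192) and with normexp (0.0546), and normexp also ended the calls without LPS (0.560) and of the change (0.272). Tnf, the tumour necrosis factor, read 6.64, 6.04, 6.73 and 7.33 against 8.13, 8.15 and 7.98, a difference of -1.40 ± 0.44 (adjusted p = 0.019). Every IFN-γ array was higher. The call of Tnf ended without IL-4 array B (0.0628) or IFN-γ arrays E (0.0605) or F (0.0607), with quantile normalization (0.0659), normexp (0.159) and the letter block (0.178). Il10, the anti-inflammatory cytokine, read 1.83, 1.56, 1.68 and 0.62 against 2.89, 2.64 and 2.06, a difference of -1.11 ± 0.30 (adjusted p = 0.0078). The IL-4 group differed from LPS alone by -1.45 for Il10 and every IFN-γ array was above every IL-4 array, but the call ended without IFN-γ array E (0.0625), with normexp (0.165), the slide block (0.277) and a fit of only the groups compared (0.102).

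Il19, a cytokine of the IL-10 family, read 1.57, 1.39, 1.84 and 1.23 with IL-4 and -4.77, -5.02 and -4.47 with IFN-γ, a difference of 6.26 ± 0.68 (limma adjusted p = 2.7e-07). Here the IL-4 group differed from LPS alone by 0.45 (adjusted p = 0.78) and the IFN-γ group by -5.81. Without LPS the difference was -1.14 (adjusted p = 0.22, or -1.89 and 0.020 with the scan day as a block), and the change of 7.40 ± 0.97 was 2.86 and not called (0.167) with normexp. Edn1, the vasoactive peptide endothelin, differed by 2.67 ± 0.45, and Tslp, a cytokine that promotes type 2 responses, by 6.19 ± 0.66, with 1 of 3 IFN-γ arrays above background. The call of Tslp ended with normexp (0.135). Il18bp, the secreted inhibitor of IL-18, differed by -2.28 ± 0.38, and Il18 itself by 0.54 (95% interval 0.05 to 1.02, adjusted p = 0.098).

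More chemokine genes were called lower than higher with IL-4 without LPS, and more higher than lower after it. Of 26 measured, 12 were called higher and 4 lower after LPS (median 0.94), and 7 higher and 12 lower without (median -1.11). Over all genes 13.9% were higher and 11.7% lower after LPS, and 14.9% and 13% without. After LPS the 14 CC members held 7 called higher and none lower (median 1.09), and the 12 CXC members 5 higher and 4 lower (median -0.67). Ccl17, which attracts T helper 2 cells through CCR4, read 4.00, 4.84, 5.64 and 4.79 with IL-4 and -4.05, -4.15 and -4.15 with IFN-γ, a difference of 8.94 ± 0.54 (limma adjusted p = 1.5e-11). The IFN-γ arrays were nearly equal and far below all IL-4 arrays. Without LPS the difference was 1.72 (adjusted p = 0.019, not called without IL-4 array C, 0.0889, or IFN-γ array G, 0.0841, nor with normexp, equal medians, the slide, the scan day or only the groups compared, 0.0665 to 0.485), and LPS added 7.21 ± 0.77 (adjusted p = 4.9e-07). Against LPS alone IL-4 differed by 5.33 and IFN-γ by -3.61, the latter not called with normexp (0.0631). Ccl22, the other CCR4 ligand, differed by 4.71 ± 0.73 after LPS and 1.64 (adjusted p = 0.098) without. The value without LPS was called with the slide (1.89, 0.0498) or scan day (1.76, 0.0456) as a block. A fit of only the groups compared called it too (0.0358). The change of Ccl22, 3.07 (adjusted p = 0.090), was called with the experiment letter as a block over the 14 primed arrays (0.0041) and in 5 other alternatives (up to 0.0299).

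Cxcl3, a ligand of CXCR2 that attracts neutrophils, read 2.97, 2.56, 2.18 and 4.60 with IL-4 and -1.62, -1.54 and -0.72 with IFN-γ, a difference of 4.37 ± 0.72 (limma adjusted p = 6.5e-05) that was -1.49 (adjusted p = 0.13) without LPS. All IL-4 arrays were higher after LPS, with G the highest. Ppbp, another CXCR2 ligand, was below background on all IFN-γ arrays and at least 5.2-fold higher with IL-4, a call lost with normexp (0.25, adjusted p = 0.96). Cxcl14 differed by -1.63 ± 0.39 and lost its call with normexp (0.217). The inflammatory chemokines Ccl2, Ccl3 and Ccl4 were not called. Ccl2 differed by 0.12 (95% interval -1.64 to 1.89), Ccl3 by -0.38 (-1.14 to 0.38) and Ccl4 by 0.32 (-0.40 to 1.03). Ccl2 read 8.28 to 9.20 over the 7 arrays. Among 24 chemoattractant receptor genes 1 was called higher and 10 lower (13.9% and 11.7% over all genes). Fpr2, a receptor for formylated bacterial peptides, went from -7.56 without LPS to -0.37 (-1.25 to 0.52) after it.

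Arginine genes divided between the primings. Nos2, which makes nitric oxide from arginine, read 0.98, 2.01, 1.68 and 0.04 with IL-4 and 3.41, 3.58 and 2.21 with IFN-γ, a difference of -1.89 ± 0.68 (limma adjusted p = 0.043). The groups did not overlap, but the lowest IFN-γ array (G) was close to the highest IL-4 array (B). That call ended without IL-4 arrays A (0.0858) or G (0.106), without IFN-γ arrays E (0.138) or F (0.160), with normexp (0.133), the letter block (0.0642), no filter on dim probes (0.0533) and a fit of only the groups compared (0.0687). Without LPS Nos2 was -7.26, with no IL-4 array above background. The change with LPS was 5.37 ± 0.96, or 1.14 and not called (0.417) with normexp. Arg2, the mitochondrial arginase, differed by -3.00 ± 0.78 (adjusted p = 0.0052), opposite to Arg1, with every IFN-γ array above every IL-4 array. Ass1, which remakes arginine from citrulline, differed by -1.88 ± 0.23, Slc7a2, an arginine transporter, by 1.96 ± 0.54 (not called without IFN-γ array G, 0.0531), and Srm, spermidine synthase, by 2.96 ± 0.66. Gch1, which makes the cofactor of Nos2, differed by 0.06 (-0.35 to 0.48) after LPS and -2.15 without. Of the 21 arginine genes, 7 were called higher and 5 lower (13.9% and 11.7% over all genes).

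Genes of glycolysis and of the response to low oxygen were lower with IL-4 both before and after LPS. Of 34 measured, 24 were called lower and none higher after LPS (median -1.26, against 0.29 over all genes), and 23 lower and 1 higher without LPS (median -1.37). Over all genes 11.7% were lower and 13.9% higher after LPS, and 13% and 14.9% without. Vegfa, the vascular growth factor induced by hypoxia, read -1.01, -2.57, -1.75 and -2.08 with IL-4 and 6.16, 5.52 and 3.43 with IFN-γ, a difference of -6.89 ± 0.53 (limma adjusted p = 9.6e-10). Every IFN-γ array was higher, with G the lowest of them. The IFN-γ group differed from LPS alone by 5.60 and the IL-4 group by -1.30 (adjusted p = 0.063). The value with IL-4 was called with the slide as a block (-1.17, 0.00051), equal medians (0.039), a fit of only the groups compared (0.043), a stricter background filter (0.043) and without IL-4 array A (0.040). Hif1a, the oxygen-sensitive transcription factor, read 2.14, 2.69, 2.42 and 1.42 against 5.62, 5.58 and 3.80, a difference of -2.83 ± 0.40 (adjusted p = 1.0e-05). Array G was the lowest array of each group for Hif1a, and the pair of that day differed by -2.38.

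Slc16a3, the lactate exporter, read 4.11, 4.06, 3.51 and 4.37 with IL-4 and 7.43, 7.88 and 7.38 with IFN-γ, a difference of -3.55 ± 0.25 (limma adjusted p = 3.5e-10). Bnip3, a mitophagy receptor, differed by -4.46 ± 0.36, Mgarp, a mitochondrial protein, by -6.02 ± 0.67, Hilpda, which inhibits lipid breakdown, by -4.25 ± 0.62, and P4ha2, a collagen prolyl hydroxylase, by -3.83 ± 0.44. In each of these 5 genes the arrays of the groups did not overlap. Against LPS alone, 21 members were called higher and none lower with IFN-γ (10.7% and 12.1% of all genes were), and 1 was higher and 12 lower with IL-4 (4.37% and 4.59%). Slc2a6, a hexose transporter, differed by 0.00 (-0.34 to 0.34) after LPS and -2.48 without, and Pfkfb4, a regulator of glycolysis, by -0.06 (-0.64 to 0.52). With normexp 14 members were called lower.

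Genes of oxidative phosphorylation stood slightly higher with IL-4: 13 of 28 were called higher and none lower (13.9% and 11.7% over all genes). Their median was 0.47, against 0.29 over all genes. With arrays set to equal medians 0 were called in either direction (median 0.10, against -0.08 over all genes). When 1 array was left out, 7 to 15 were called higher. Ndufb5, a complex I subunit, differed by 1.24 ± 0.21 and Ndufc1 by 1.08 ± 0.27, and neither was called with equal medians (limma adjusted p = 0.0620 and 0.152), nor Ndufc1 with the letter block (0.0712). Of 20 genes of the citric acid cycle and itaconate, 7 were called higher and none lower (13.9% and 11.7% over all genes). Idh2, mitochondrial isocitrate dehydrogenase, read 0.99, 0.07, 0.17 and 1.24 with IL-4 and -3.02, -3.05 and -1.75 with IFN-γ, a difference of 3.22 ± 0.34 (adjusted p = 1.4e-07). Fh1, fumarase, differed by 2.12 ± 0.21 and Idh1, the cytosolic isocitrate dehydrogenase, by 1.89 ± 0.26, and for all 3 every IL-4 array was higher. Acod1, which makes itaconate, read 8.45, 8.52, 8.54 and 8.85 against 8.84, 8.87 and 8.96, a difference of -0.30 (95% interval -0.79 to 0.19). Without LPS the difference of Acod1 was -8.27, and the change was 7.97 ± 0.33 (adjusted p = 4.5e-14).

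Lipid synthesis genes were higher with IL-4. Of 31 lipid and cholesterol genes, 13 were called higher and 4 lower (13.9% and 11.7% over all genes). Their median was 0.64, against 0.29 over all genes. Fasn, fatty acid synthase, read 4.70, 5.15, 2.98 and 4.92 with IL-4 and -0.90, 0.53 and 1.66 with IFN-γ, a difference of 4.01 ± 0.72 (limma adjusted p = 0.00016). Array C was the lowest IL-4 array and G the highest IFN-γ array, without overlap. Idi1, Sqle and Fdps, enzymes of the sterol pathway, differed by 2.90 ± 0.53, 2.70 ± 0.69 and 2.45 ± 0.62. These 4 genes differed from LPS alone by -3.17 to -2.22 with IFN-γ, all called, and by 0.039 to 0.84 with IL-4, none called. The call of Sqle ended with the letter block (0.0586). With equal medians 8 of the list were called higher and 4 lower.

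Among prostanoid and leukotriene genes the constitutive and the inducible cyclooxygenase differed in pattern. Ptgs1, the constitutive enzyme, read 2.89, 2.41, 1.96 and 3.20 with IL-4 and -4.52, -3.88 and -2.66 with IFN-γ, a difference of 6.30 ± 0.54 (limma adjusted p = 5.6e-09) against 7.18 without LPS. Every IL-4 array was higher. Ptgs2, the inducible enzyme, read 5.76, 6.06, 6.44 and 5.58 against 7.39, 7.17 and 6.12, with overlap between array G of IFN-γ and array C of IL-4 (-0.93, 95% interval -2.10 to 0.24, adjusted p = 0.24). Its difference without LPS was -9.70 and the change 8.76 ± 0.80. With the slide as a block or array weights the difference of Ptgs2 after LPS was called (-1.78, 0.0250, and -1.13, 0.0480). Alox5, which starts leukotriene synthesis, differed by 3.39 ± 0.74, Hpgds, a prostaglandin D synthase, by -1.62 ± 0.30, and Pla2g7, which breaks down platelet-activating factor, by -2.33 ± 0.41. Ptges, a prostaglandin E synthase, differed by -1.30 ± 0.37, not called without IFN-γ array E (0.0619), with normexp (0.115) or in a fit of only the groups compared (0.0800). Alox15, a lipoxygenase of IL-4-treated cells, was below background with IFN-γ and at least 2.1-fold higher with IL-4 (3 of 4 arrays above background), and with normexp it was -0.06 (0.984). Of 18 such genes, 6 were called higher and 3 lower (13.9% and 11.7% over all genes).

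Matrix, coagulation and growth factor genes divided, with 20 of 52 called higher and 13 lower with IL-4 (13.9% and 11.7% over all genes). Timp1, the inhibitor of matrix metalloproteinases, read 5.66, 5.72, 6.21 and 3.99 with IL-4 and 0.46, 1.25 and 0.37 with IFN-γ, a difference of 4.70 ± 0.38 (limma adjusted p = 2.4e-09) that was 0.70 (adjusted p = 0.18) without LPS. Every IL-4 array was higher, with G the lowest. Vcan, the proteoglycan versican, differed by 3.65 ± 0.45 after LPS and -1.19 without, and F13a1, coagulation factor XIII, by 3.77 ± 0.59. Pdgfb, a growth factor for mesenchymal cells, read -3.01, -3.18, -3.54 and -1.62 against 1.93, 2.60 and 2.69, a difference of -5.24 ± 0.41 (adjusted p = 1.5e-09). All IFN-γ arrays were higher, and the change from the difference without LPS was -3.86 ± 0.58. Thbs1, thrombospondin, differed by -4.40 ± 0.87. Igf1, the insulin-like growth factor, read 6.94, 6.59, 7.09 and 7.00 against 3.47, 3.06 and 3.68, a difference of 3.50 ± 0.24 (adjusted p = 1.9e-10) with no overlap.

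Some metal-binding and iron genes also differed. Of 30 metal and redox genes, 7 were called higher and 5 lower (13.9% and 11.7% over all genes), and 18 were not called. The list median was -0.15, against 0.29 over all genes. Among its 13 metal genes, 3 were called higher, 2 lower and 8 were not called. Mt2, a metallothionein that binds zinc and copper, read 7.02, 6.34, 6.99 and 5.23 with IL-4 and -0.45, -0.15 and -0.17 with IFN-γ, a difference of 6.65 ± 0.40 (limma adjusted p = 1.5e-11). All IL-4 arrays were far above. Without LPS the difference was 0.89 (adjusted p = 0.11), and the IFN-γ group differed by -5.64 from LPS alone, whose median was 5.37. Mt1 differed by 3.90 ± 0.36, and by 0.84 on its other probe (adjusted p = 0.14). Tfrc, the transferrin receptor that takes up iron, differed by 4.76 ± 0.33, and Slc11a1, which pumps iron and other metals out of the phagosome, read 3.43, 3.98, 3.60 and 3.65 against 6.49, 6.52 and 6.47, a difference of -2.83 ± 0.17 (adjusted p = 1.1e-11). The IFN-γ arrays of Slc11a1 were nearly equal and above all IL-4 arrays.

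Surface receptors and regulators of activation showed both patterns. Fcgr2b, the inhibitory receptor for IgG, differed by 2.78 ± 0.27 and the activating receptor Fcgr4 by -1.96 ± 0.40. Fcgr4's call ended in a fit of only the groups compared (limma adjusted p = 0.0602). Cd40, a costimulatory receptor, read 6.68, 6.64, 7.20 and 6.67 with IL-4 and 6.71, 7.01 and 6.84 with IFN-γ, which overlapped (-0.06, 95% interval -0.51 to 0.40), against -3.57 without LPS. Cd274, the PD-1 ligand PD-L1, differed by -1.44 ± 0.38, opposite to Pdcd1lg2, with a call lost with normexp (0.139) and in a fit of only the groups compared (0.0651). Cd86, a costimulator of T cells, differed by -1.10 ± 0.36, a call lost without IL-4 array G (0.0752) or IFN-γ arrays E (0.0775) or F (0.116), with normexp (0.267), the letter block (0.0691) and a fit of only the groups compared (0.106). Slamf8 and Havcr2, receptors of activated myeloid cells, differed by -3.14 ± 0.31 and -3.10 ± 0.41. Of 26 costimulatory and inhibitory genes, 4 were called higher and 8 lower (13.9% and 11.7% over all genes). Lower calls numbered 3 with normexp and 4 in a fit of only the groups compared.

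Of 38 feedback inhibitor genes, 12 were called lower and 3 higher with IL-4 (11.7% and 13.9% over all genes). Lower calls numbered 4 with normexp, 5 in a fit of only the groups compared and 23 with array weights. Il1rl1, the receptor for IL-33, read 0.73, -2.01, -1.24 and 1.42 with IL-4 and -3.56, -4.34 and -5.06 with IFN-γ, a difference of 4.05 ± 0.54 (limma adjusted p = 5.1e-06) that was 6.92 without LPS. All IL-4 arrays were higher, and another probe of the gene differed by 1.27 (adjusted p = 0.17). Il1r2, the decoy receptor for IL-1, differed by -2.62 ± 0.40, and the MAP kinase phosphatases Dusp1 and Dusp10 by -1.77 ± 0.35 and -2.14 ± 0.25 (Dusp1 0.0597 in a fit of only the groups compared). Socs3, the inhibitor of IL-6 signalling, differed by -0.54 (95% interval -1.28 to 0.21) after LPS against -5.32 without, and Socs1, the inhibitor of IFN-γ signalling, by -0.24 (-0.79 to 0.31). Cd14, the co-receptor of TLR4 for LPS, read 6.25, 6.24, 6.54 and 6.56 against 8.43, 8.48 and 8.24, a difference of -1.99 ± 0.22 (adjusted p = 2.9e-07), while Ly96, the LPS-binding partner of TLR4, was higher by 1.57 ± 0.29. Of 33 TLR4 pathway genes, 1 was called higher and 6 lower (13.9% and 11.7% over all genes), and 1 lower in a fit of only the groups compared.

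Among 63 transcription factor genes, 10 were called higher and 22 lower with IL-4 (13.9% and 11.7% over all genes). Lower calls numbered 14 without IFN-γ array E, 10 with normexp (6 higher) and 9 in a fit of only the groups compared. Egr2, an IL-4-induced factor, had a mean of 5.82 with IL-4 and 0.14 with IFN-γ without LPS, and after LPS it read 2.60, 4.32, 4.07 and 2.87 against 3.07, 2.60 and 1.79. The groups then overlapped (0.98, 95% interval 0.13 to 1.83, limma adjusted p = 0.085, and called without IL-4 array A, 0.0306, or G, 0.0456), and the change with LPS was -4.70 ± 0.58 (adjusted p = 5.2e-06). Irf4, a factor needed for alternative activation, read -1.38, -1.95, -1.37 and -0.62 against -3.27, -2.87 and -3.85, a difference of 2.00 ± 0.41 (adjusted p = 0.00071, or 0.417 with normexp) against 6.29 without LPS. All IL-4 arrays of Irf4 were higher. Batf3, a partner of IRF factors, differed by 3.57 ± 0.35, and Stat4, which carries IL-12 signals, by -3.48 ± 0.44. Id3 and Fos differed by -3.33 ± 0.49 and -2.00 ± 0.41, the latter 0.0505 in a fit of only the groups compared. Stat6 itself differed by -0.42 (-0.78 to -0.06, adjusted p = 0.085), called without IL-4 array G (0.0363) or IFN-γ array G (0.0388) and with array weights (0.0023).

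**Figure D4:**
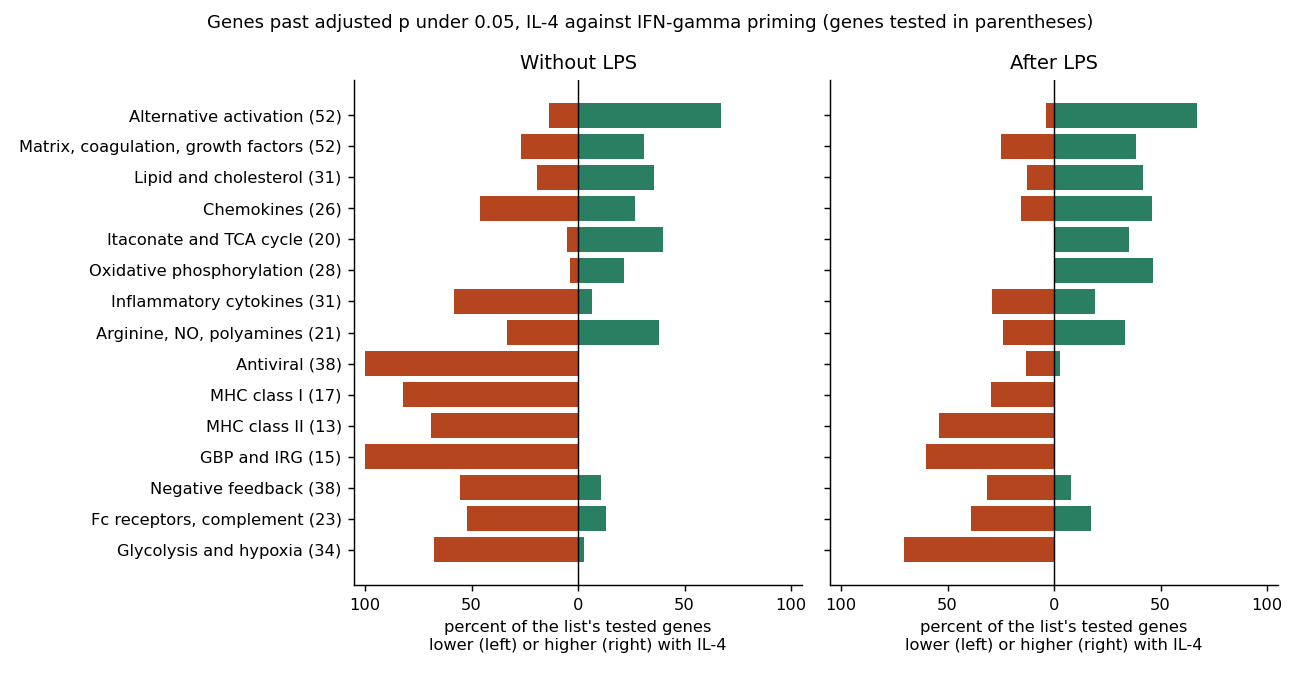
Percent of each list's tested genes called higher (right) or lower (left) with IL-4 than with IFN-γ, without LPS and after LPS, for 15 gene lists. Antiviral and GBP and IRG genes are lower throughout without LPS (38 of 38 and 15 of 15) and 5 of 38 and 9 of 15 are lower after LPS, while glycolysis and hypoxia genes stay at 23 and 24 of 34.

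Cell cycle genes were higher with IL-4 without LPS in 24 of 37 and lower in none (14.9% and 13% over all genes). After LPS 6 were higher and 2 lower (13.9% and 11.7% over all genes). The count higher after LPS ranged from 1 to 14 when 1 array was left out and was 0 with equal medians. With the slide or scan day as a block or with array weights, 23, 20 and 22 were higher after LPS, so the count after LPS depends on the model. A small set had an IL-4 difference that LPS reduced. Ier5l, an immediate early response gene, went from 5.58 without LPS to 0.92 after, Rtn4rl1, a Nogo receptor homologue, from 5.54 to 0.80 with neither group above background after LPS, and Trib2, a pseudokinase, from 5.25 to 0.95. The difference of Ier5l after LPS (limma adjusted p = 0.046) was not called without IL-4 arrays A (0.157), B (0.0592) or C (0.0874) or IFN-γ arrays F (0.103) or G (0.208), and was -0.22 with normexp. The change of Trib2 (-4.30) was not called without IL-4 plus LPS array C (0.0575), IFN-γ arrays F (0.0565) or G (0.0800) of the primings without LPS, or IFN-γ plus LPS arrays E (0.0866) or F (0.0701). Normexp ended it too (0.306), as did a fit of only the groups compared (0.0828). Normexp also ended the call of Rtn4rl1's change (0.417).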

How the data were processed

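The deposited scanner files hold 1-colour fluorescence intensity per spot, made with Agilent Feature Extraction 9.5.1 per the file headers, which detrended each array and replaced low spots by surrogates, without local background subtraction or scaling between arrays. The deposited processed intensity was log2 transformed here and the array's 75th percentile subtracted, with spot outliers left out, so every value is log2 of deposited intensity. Of 41174 probes, named through RefSeq accessions or symbols where possible (27670 names), the brightest of a gene was used where 8914 genes had several. Of 42 called named genes with another tested probe, 13 had one that was not called. A gene was tested if well above background on at least 3 of 28 arrays. A limma model (limma 3.58.1, R 4.3.3, data.table version 1.17.8) of 6 group means over all 28 arrays gave every comparison, with two-sided moderated tests and Benjamini-Hochberg adjustment over all genes tested. It was tested on simulated data: for IL-4 plus LPS against IFN-γ plus LPS it recovered 68% of 100 genes changed by 2 log2 units and 95% of 100 changed by 4. The simulated noise was independent between arrays, with no slide, day or experiment effect. The simulation therefore does not cover the separation of the groups by slide. The number of arrays, 3 and 4 in the groups compared, limits precision. Figures used Python 3.11.15 and matplotlib 3.10.9.

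Genes were named by rule: the 15 largest called differences in each direction with the brighter group well above background on every array, the 10 largest changes with LPS in each direction, up to 5 called members in each direction and up to 3 with the largest p of each list, a core set, and markers. Genes of these were described as the lists needed, and a few are not reported here. Members and lists were chosen with earlier results of these data known. Alternatives were normexp, quantile and median scaling, filters, probe means, array weights, slide, scan day or experiment letter as a block, a fit of only the groups compared, and each array left out. The letter block over the 14 primed arrays was added after seeing the data. Letters paired primed arrays with and without LPS (correlations of same-lettered arrays 0.156 to 0.727), although for IL-4 letters A and B the same-slide arrays of the other letter correlated more (0.479 and 0.391, against 0.156 and 0.185). The authors' deposited value table was left aside.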

Additional observations from a re-analysis of the deposited data

Results flagged for a closer look

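LPS changed the IL-4 against IFN-γ difference of 1212 genes by limma's interaction test, and for 32 named genes whose change was examined one by one the called value is given here. Changes upward among interferon genes and chemokines were 8.11 for Cxcl9, 7.86 for Cxcl10, 7.13 for Cxcl11, 6.84 for Gbp2b, 5.14 for Gbp2, 4.50 for Gbp4, 4.92 for Ifnb1, 3.80 for Mx2, 2.31 for Irf7 and 2.00 for Irf1. Among inflammatory genes they were 8.76 for Ptgs2, 8.03 for Il1b, 7.97 for Acod1, 7.19 for Fpr2, 5.57 for Il6, 5.37 for Nos2, 4.79 for Socs3, 4.38 for Il12b, 3.79 for Tnf and 2.84 for Tgm2. Genes whose difference after LPS favoured IL-4 changed by 7.40 (Il19), 7.21 (Ccl17), 5.76 (Mt2), 5.68 (Il12a) and 3.40 (Ccl24). Changes downward were -4.74 for Rtn4rl1, -4.70 for Egr2, -4.66 for Ier5l, -4.30 for Trib2, -4.29 for Irf4, -3.86 for Pdgfb and -1.46 for Cd300lf. With normexp 12 of these changes were not called: those of Ccl24, Cxcl11, Gbp2b, Ifnb1, Il12a, Il12b, Il19, Il6, Nos2, Cd300lf, Rtn4rl1 and Trib2 (limma adjusted p 0.055 to 0.67).

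In 8 of 233 groups of 4 or 7 arrays examined over these genes, 1 array stood apart from the others of its group, where chance alone gives about 1 in 20. With IL-4 plus LPS these were array B for Il27 (2.09, others 4.31 to 4.76) and Mx2 (5.62, others 6.55 to 6.70), array C for Cd40 (7.20, others 6.64 to 6.68) and Cldn23 (-6.39, others -5.62 to -5.49), array G for C1s1 (-5.11, others -4.11 to -4.04) and Ifi44 (2.84, others 3.60 to 3.76). With IL-4 alone they were array G for Cxcl11 (-8.15, others -7.53 to -7.42) and array C for Il10 (-2.97, others -2.53 to -2.51).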

How the results depend on the processing

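Normexp gave 2491 genes for IL-4 plus LPS against IFN-γ plus LPS (against 5736), 461 for the change with LPS (against 1212), 3065 without LPS (against 6260), and 533 and 2042 for IL-4 plus LPS and IFN-γ plus LPS against LPS alone (against 2011 and 5109). Median scaling gave 709 for the change and 1103 for IL-4 plus LPS against LPS alone, the slide as a block 3369 and 3835, and the scan day 2438 and 3225. A fit of only the groups compared gave 2472 after LPS, 719 for the change and 1154 for IL-4 plus LPS against LPS alone. Array weights gave 10653 after LPS, 3593 for the change, 12785 without LPS and 9404 for IFN-γ plus LPS against LPS alone. Leaving out 1 array gave 4000 (without IFN-γ plus LPS array E) to 6238 after LPS and 3214 (also without E) to 5176 for IFN-γ plus LPS against LPS alone. Apart from fewer arrays in those fits, the cause was not tested.

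Of 2967 recomputed differences of named genes after LPS, 2750 stayed on the same side of the threshold with the same sign, 190 lost and 24 gained the call, and 3 turned: Alox15 and Ier5l with normexp (-0.063 and -0.22) and H2-D1 with the mean of its probes (0.36).

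No paired analysis was possible because IL-4 plus LPS and IFN-γ plus LPS share only the letter G. With the letter as a replicate block over all 28 arrays, 4441 genes were called after LPS. Arrays of LPS alone were scanned on other days than any primed arrays of their letter. For letter G this was scan day 4 for LPS alone and 2 for untreated cells, against 5 for the primed arrays. Whether the letters pair these groups was not tested, so calls gained or lost with this block are doubtful too. For the change with LPS, the replicate block over the 14 primed arrays called 1220 genes, 798 upward and 422 downward, of which 894 were among the 1212; these calls rest on letters that are doubtful for IL-4 arrays A and B. Ccl22's change with LPS was called there (3.07, adjusted p = 0.0041 in limma). With median scaling 25.3% of the calls after LPS were higher with IL-4, against 54.4%. The median difference of all genes tested after LPS was 0.29, -0.082 with median scaling and -0.22 with normexp, and normexp moved that of the change with LPS to -0.85. A probe not well above background on every array of a group gives only a bound there.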
